A study of Homo sapiens with 3 samples.

Results

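CXCL12, CXCR4 and ACKR3 encode a chemokine and both of its receptors, and they are described here in T47D cells given the peptide ERα17p, estradiol or vehicle. They are 3 of 19775 genes with a probe set of their own, and 8 of the 41091 probe sets that carry exactly 1 gene name. The genes were chosen by symbol because CXCL12 stood 2-fold below vehicle with ERα17p and 2-fold above it with estradiol. The differences from vehicle therefore chose the members, and all member values are given as a description with no test.

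T47D is a human breast cancer line of luminal type that carries estrogen receptor α. The cells were held for 4 h in medium with 10% charcoal-stripped serum, which removes steroid hormones, and were then treated for 3 h. The groups were 1 µM ERα17p, a synthetic peptide copied from the calmodulin-binding stretch of the receptor, 1 µM estradiol, the main natural ligand of the receptor, and 0.1% ethanol as vehicle. Each group had 1 Affymetrix HG-U133 Plus 2 array, so no value has an error between cultures, and the labels name no solvent for the treated cells. The deposited values lay around 0 relative to a baseline of each probe set that is not stated. Only differences between arrays can be read from them, and whether a gene was expressed at all cannot. The scale was taken to be log2, and fold sizes rest on that. The SD given with a gene is the spread over its n probe sets. The vehicle array stood apart, with an SD over 54613 probe sets other than controls of 0.434, against 0.166 on the ERα17p array and 0.158 on the estradiol array. Its part in the differences from vehicle was not tested, and the ERα17p and estradiol arrays are therefore also compared directly.

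CXCL12, also called stromal cell-derived factor, is a secreted chemokine that draws cells along its gradient by binding CXCR4, a receptor that signals through inhibitory G proteins. ACKR3 binds the same ligand with high affinity, recruits arrestin without classical G protein signalling and removes CXCL12 by internalising it. In breast tissue CXCL12 is abundant in stromal cells, and in estrogen receptor-positive breast cancer lines the gene is a known estrogen-induced target.

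The stretch of 250 bases before the annotated start of CXCL12 is shown because its estradiol and peptide values diverged most and the estrogen receptor binds DNA through a short core, AGGTCA. It lies on the minus strand at chr10:44385098-44385347 of GRCh38.p14 (RefSeq), and the capitals mark the 1 match to that core.
CXCL12: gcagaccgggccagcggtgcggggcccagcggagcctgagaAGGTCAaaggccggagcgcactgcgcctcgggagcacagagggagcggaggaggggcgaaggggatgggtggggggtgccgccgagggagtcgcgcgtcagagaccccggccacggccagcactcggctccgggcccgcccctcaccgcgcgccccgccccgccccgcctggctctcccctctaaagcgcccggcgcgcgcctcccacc
The core was searched on both strands and lay 209 to 204 bases before the start. It was found in 12.1% of 35097 windows of the same length before annotated starts. No full element of the form GGTCANNNTGACC was found in the CXCL12 window, and 0.0399% of all windows held one. The window also held 3 matches to the GC box GGGCGG, some of which overlap, a motif present in 42.6% of windows, and its GC content was 78.0%. For CXCR4, on the minus strand of chromosome 2, 3 start windows were listed, and none held AGGTCA. A match describes these letters only and is not a binding site.

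CXCL12 was lowest in the ERα17p array and highest in the estradiol array, with the vehicle array in between, on both of its probe sets. Probe set 203666_at stood at −2.18 with ERα17p, 0.93 with estradiol and −0.63 with vehicle. Probe set 209687_at stood at −1.45 with ERα17p, 0.71 with estradiol and −0.33 with vehicle. Each set was at least 2-fold lower with ERα17p and at least 2-fold higher with estradiol than with vehicle. Of probe sets with 1 gene, 2.66% were at least 2-fold lower with ERα17p and 3.79% at least 2-fold higher with estradiol.

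**Figure D1:**
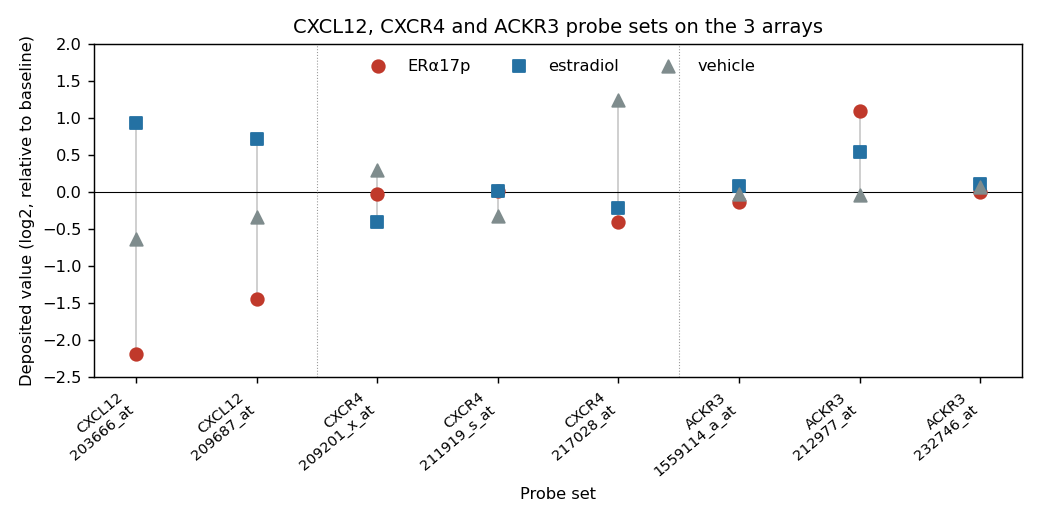
Deposited log2 value relative to baseline (vertical axis) of each of the 8 probe sets of CXCL12, CXCR4 and ACKR3 on the ERα17p (circle), estradiol (square) and vehicle (triangle) arrays, 1 array each. Both CXCL12 sets have ERα17p lowest and estradiol highest, 217028_at of CXCR4 is high at 1.24 on the vehicle array, and 212977_at of ACKR3 reaches 1.09 on the ERα17p array.

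With ERα17p, CXCL12 was lower than with vehicle by a difference of −1.33 ± 0.31 (SD, n = 2 probe sets), a size of 2.52-fold. At least 2-fold lower were 1.87% of all genes in that comparison. With estradiol it was higher than with vehicle by 1.30 ± 0.36, a size of 2.46-fold, where 1.57% of genes were at least 2-fold higher. By size of difference CXCL12 was number 215 of 19775 genes for ERα17p and number 213 for estradiol. By direction it was number 89 from the lowest with ERα17p and number 119 from the highest with estradiol. Both differences were thus far from the middle of their comparison, but other genes had larger ones. In the deposited values, what set them apart from those of all other genes was their opposite signs at this size.

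Set directly against each other, ERα17p and estradiol differed more in CXCL12 than in any other gene of the 19775. The ERα17p minus estradiol difference was −3.11 for 203666_at and −2.16 for 209687_at, sizes of 8.63-fold and 4.46-fold. These had ranks 1 and 4 from the bottom of all 54613 probe sets, and 0.129% of probe sets with 1 gene were at least 2-fold lower. The gene mean was −2.63 ± 0.67 (SD, n = 2), or 6.20-fold, and the next gene, RASGRP1, stood at −2.41 with its 1 probe set. In this comparison 0.086% of genes, 17 in all, were at least 2-fold lower and 0.0607%, or 12, at least 2-fold higher. After quantile normalization these counts were 90 and 110. The difference does not use the vehicle array, but the choice of CXCL12 rested on the same ERα17p and estradiol values. The spread between both CXCL12 sets in this comparison exceeded that of 99.4% of the 5015 genes with 2 probe sets, although both sets point the same way.

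CXCR4, the signalling receptor, had no common pattern over its 3 probe sets. Probe set 217028_at stood at −0.41 with ERα17p, −0.21 with estradiol and 1.24 with vehicle. Probe set 209201_x_at stood at −0.02 with ERα17p, −0.40 with estradiol and 0.30 with vehicle. Probe set 211919_s_at stood at 0.02 with ERα17p, 0.01 with estradiol and −0.32 with vehicle. The vehicle array was thus the highest of the 3 for the first 2 sets and the lowest for the third. Sets whose identifier ends in _x_at or _s_at are open to cross-hybridisation or shared transcripts, and 2 of the 3 CXCR4 sets are of this kind.

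The CXCR4 gene mean was −0.54 ± 1.01 (SD, n = 3) for ERα17p minus vehicle and −0.61 ± 0.90 for estradiol minus vehicle, so the spread over probe sets exceeded each difference. By the mean, CXCR4 was past 1.5-fold lower with estradiol, as were 8.42% of genes, and not with ERα17p. That spread was larger than in 98.2% and 96.0% of the 2780 genes with 3 probe sets. Of probe sets with 1 gene, 2.66% were at least 2-fold lower with ERα17p than with vehicle and 2.34% with estradiol. Probe set 217028_at was among them in both. Without 217028_at the gene differences were 0.01 for ERα17p and −0.18 for estradiol, and with that set alone they were −1.65 and −1.46. For ERα17p minus vehicle the gene mean thus rested on 217028_at. For estradiol minus vehicle 209201_x_at was lower too, at −0.70, and 211919_s_at was higher, at 0.33. ERα17p minus estradiol was 0.07 ± 0.29, with single sets at 0.38 (209201_x_at), 0.01 (211919_s_at) and −0.19 (217028_at), all short of 1.5-fold. In that comparison 0.521% of genes were past 1.5-fold higher and 0.607% lower.

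ACKR3, the scavenging receptor, was higher in the ERα17p array by 1 of its 3 probe sets. Probe set 212977_at stood at 1.09 with ERα17p, 0.55 with estradiol and −0.04 with vehicle. This set ordered the arrays as ERα17p, estradiol and then vehicle, unlike either CXCL12 set. Probe set 1559114_a_at stood at −0.13 with ERα17p, 0.08 with estradiol and −0.02 with vehicle, and 232746_at at 0.01, 0.12 and 0.06 in the same order. These 2 sets spanned at most 0.22 between any pair of arrays.

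The difference of 212977_at was 1.13 for ERα17p minus vehicle, a size of 2.19-fold, 0.59 for estradiol minus vehicle and 0.54 for ERα17p minus estradiol. At least 2-fold higher with ERα17p than with vehicle were 3.99% of probe sets with 1 gene. The ACKR3 gene mean was 0.32 ± 0.70 (SD, n = 3) for ERα17p minus vehicle, 0.25 ± 0.30 for estradiol minus vehicle and 0.07 ± 0.41 for ERα17p minus estradiol. Without 212977_at the means were −0.09, 0.08 and −0.16. A single probe set carried the difference of ACKR3 from vehicle, and the mean stayed short of 1.5-fold in each comparison.

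**Figure D2:**
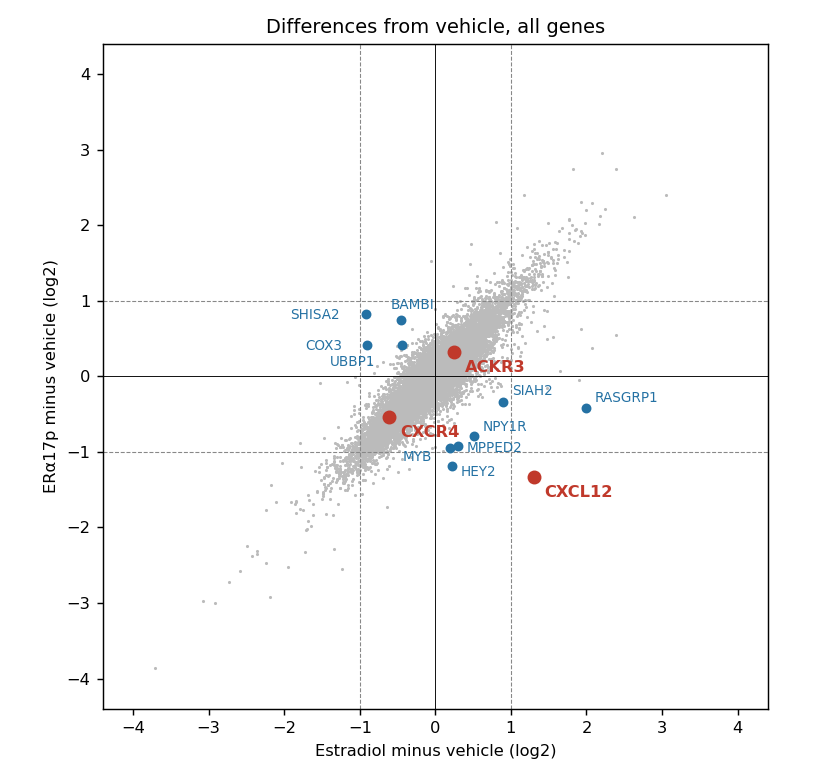
Estradiol minus vehicle (horizontal) against ERα17p minus vehicle (vertical), both log2, for all 19775 genes as grey points, with dashed lines at 2-fold. CXCL12 lies alone beyond both dashed lines in the lower right, CXCR4 and ACKR3 lie within the cloud, and the genes in blue are those nearest to CXCL12 or next in the order of opposite differences. Both axes share the vehicle array.

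The genes that follow CXCL12 were listed with opposite differences ranked by the smaller of both sizes. This ranking uses the values that chose CXCL12, whose smaller size was 1.30. SHISA2, an inhibitor of Wnt and FGF receptor maturation, came next with 0.83 for ERα17p and −0.92 for estradiol, the reverse of CXCL12. NPY1R, a neuropeptide Y receptor and known estrogen target, stood at −0.79 and 0.51. These were followed by BAMBI, a decoy receptor for TGF-β family ligands, at 0.75 and −0.45, COX3, a mitochondrially encoded respiratory subunit, at 0.42 and −0.91, the ubiquitin pseudogene UBBP1 at 0.42 and −0.44, and RASGRP1, a Ras activator, at −0.42 and 1.99. Each of these 6 genes has 1 probe set. Of any size, 9.04% of genes were lower with ERα17p and higher with estradiol, and 9.79% the reverse, each against vehicle. At 2-fold in both, CXCL12 was the only gene, or 0.00506% of those measured. Its 2 probe sets were the only ones among the probe sets with 1 gene, or 0.00487% of them. After quantile normalization of the 3 arrays there were 4 such genes, with ADRA2A, RASGRP1 and SHISA2 beside CXCL12.

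By the same differences that chose CXCL12, no gene lay close to it. A gene within 0.1 of it would itself be 2-fold opposite, and CXCL12 was the only such gene. The empty neighbourhood thus follows from the choice and adds nothing to it. Likeness was measured over the 3 arrays as the Euclidean distance between the pairs of differences from vehicle, and no gene lay within 0.1 of CXCL12. The nearest were NPY1R at a distance of 0.96, the ubiquitin ligase gene SIAH2 at 1.07 and MPPED2 at 1.08. Then came HEY2, a transcriptional repressor downstream of Notch, at 1.09, RASGRP1 at 1.15 and MYB, a transcription factor, at 1.17. All 6 were lower with ERα17p and higher with estradiol than with vehicle by their gene means. CXCR4 and ACKR3 lay within the main cloud of genes. Within 0.1 of CXCR4 were 338 genes, the nearest being KLHL25, DALRD3, MYDGF and SEMA4G. For ACKR3 there were 813, the nearest being C11orf58, CAND1, HOPX and DNM1P46. Of the 6 genes nearest to CXCL12, all matched a start window and 0 held AGGTCA in it, against 13.4% of the 15384 measured genes that matched.

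Of the nearest genes, NPY1R, SIAH2 and RASGRP1 have 1 probe set, and the others have 2 that did not always order the arrays alike. NPY1R stood at −0.72 with ERα17p, 0.58 with estradiol and 0.07 with vehicle. For MYB, 204798_at stood at −1.55, 0.39 and 0.01 on the ERα17p, estradiol and vehicle arrays, and 215152_at at −0.25, 0.10 and 0.10. For HEY2, 219743_at stood at −0.71, 0.67 and −0.09 in the same order, but 222921_s_at at −1.46, −0.05 and 0.27, so the second set placed estradiol below vehicle, although the ERα17p minus estradiol difference of both sets was close, at −1.40 ± 0.02. MPPED2 was split likewise, with ERα17p minus estradiol at −2.18 for 205413_at and −0.27 for 215692_s_at. SIAH2, with 1 set, stood at −0.64, 0.59 and −0.30.

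In the deposited values no other gene was 2-fold opposite, so no other chemokine could share the CXCL12 pattern. The largest chemokine differences from vehicle were nearly equal in both treated arrays, and both use the same vehicle array. Between the treated arrays, 0.0607% of all genes were at least 2-fold higher with ERα17p and 0.086% lower. Near-equal values were thus common to most genes. Of 18 other CXC, CX3C and XC chemokines listed, 17 were measured, and 2 of them were at least 2-fold lower and 0 higher with each agent. Of all genes, 1.87% were at least 2-fold lower with ERα17p and 1.63% with estradiol. CXCL3, a neutrophil attractant, stood at −1.63 with ERα17p and −1.67 with estradiol, and its relative CXCL1 at −1.59 and −1.49. CXCL2 stood at −0.84 and −0.68, and of its 3 probe sets 209774_x_at alone was far from vehicle, at −2.84 and −2.40. The interferon-induced CXCL9 stood at 0.49 and 0.12. ERα17p minus estradiol lay between −0.25 (PPBP) and 0.37 (CXCL9) for all 17, with a median of −0.10, against 0.01 for all genes.

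Of 24 CC chemokines 20 were measured. CCL20, which attracts dendritic and T cells through CCR6, stood at −2.72 with ERα17p and −2.73 with estradiol, and was the 1 member at least 2-fold lower with each agent, beside the same 1.87% and 1.63% of all genes. Its probe set read −0.31 on both treated arrays and 2.42 on the vehicle array. The mucosal chemokine CCL28 stood at 0.79 ± 1.01 (SD, n = 3) and 1.08 ± 0.87, CCL4 at −0.58 and −0.71, and CCL25 at 0.05 and −0.32. ERα17p minus estradiol ranged from −0.29 (CCL28) to 0.49 (CCL2), with a median of 0.06. The other chemokines far from vehicle thus had similar values in both treated arrays, as did most genes. CXCL12 had been chosen for its opposite directions.

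**Figure D3:**
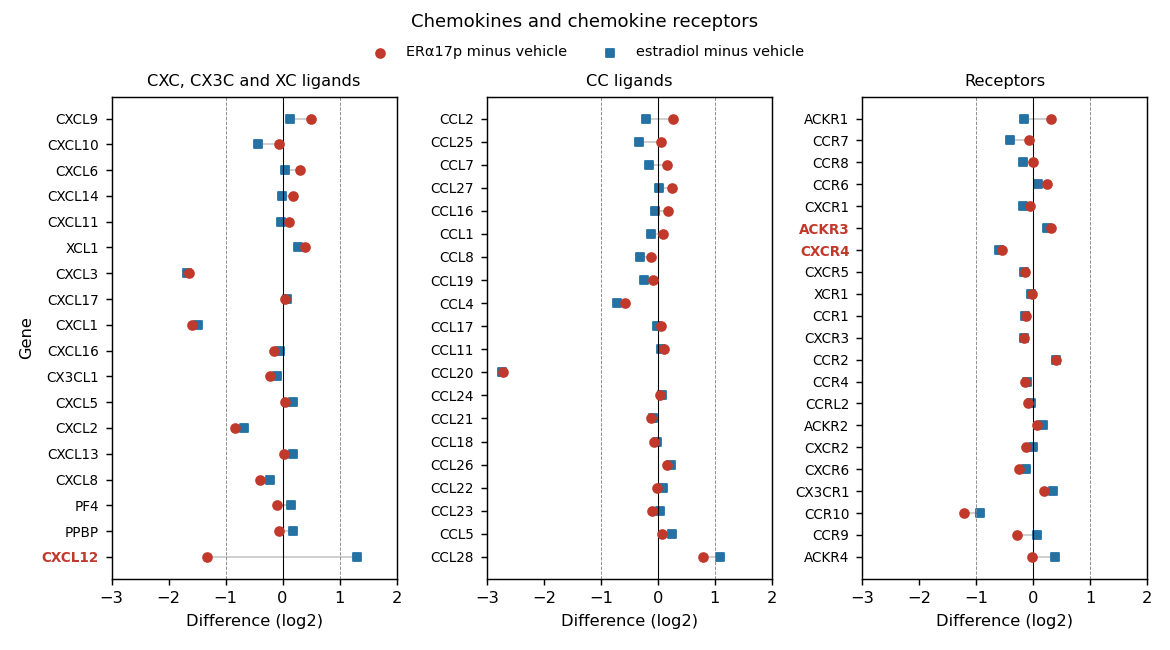
Difference from vehicle (log2, horizontal) of each measured chemokine and chemokine receptor with ERα17p (circle) and estradiol (square), 1 gene a row, ordered within each panel by ERα17p minus estradiol, with dashed lines at 2-fold. The circle and square of CXCL12 lie at −1.33 and 1.30, while those of CXCL1, CXCL3 and CCL20 lie side by side below −1.

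The other chemokine receptors gave small values. Of 22 listed 19 were measured, with medians of −0.07 for ERα17p minus vehicle and −0.11 for estradiol minus vehicle, against 0.00 for all genes in both. CCR10, a receptor for CCL27 and CCL28, stood at −1.21 with ERα17p and −0.93 with estradiol, and was the 1 member past 1.5-fold with either agent. CCR2 stood at 0.41 ± 0.10 (SD, n = 2) and 0.40 ± 0.30, CCR7 at −0.07 and −0.41, and ACKR4, a scavenger of other chemokines, at −0.03 and 0.39. Past 1.5-fold lower in all genes were 8.76% with ERα17p and 8.42% with estradiol. For ERα17p minus estradiol, 0 of the 19 were past 1.5-fold, and the range was −0.41 (ACKR4) to 0.47 (ACKR1). The CXCR4 and ACKR3 means, 0.07 each, lay inside it.

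Other ligands of the receptors stayed short of 1.5-fold with either agent, all 5 of them measured. MIF, a cytokine that binds CXCR4, stood at −0.45 with ERα17p and −0.38 with estradiol. HMGB1, a nuclear protein that forms a complex with CXCL12 outside the cell, stood at 0.22 ± 0.28 (SD, n = 5) and 0.11 ± 0.36. ADM, the adrenomedullin gene whose peptide ACKR3 scavenges, stood at 0.01 and 0.16, and CXCL14 at 0.18 ± 0.13 (SD, n = 3) and 0.00 ± 0.39. Among 11 genes whose products cleave CXCL12 or hold it in the matrix, 1 was at least 1.5-fold lower with ERα17p and 2 with estradiol, where 8.76% and 8.42% of all genes were. The heparan sulfate carrier SDC4 stood at −0.93 and −0.96, the gelatinase MMP9 at −0.56 and −0.63, SDC1 at −0.49 ± 0.06 (SD, n = 2) and −0.56 ± 0.02, and the neutrophil protease gene ELANE at −0.23 and −0.20. DPP4, the peptidase that inactivates CXCL12 by trimming its end, stood at 0.05 and 0.03.

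Of 19 G proteins, receptor kinases, arrestins and regulators 18 were measured. GNAI1 encodes an inhibitory G protein α subunit of the kind that CXCR4 uses. It was the 1 member at least 2-fold apart between the treated arrays, at 1.05 ± 0.58 (SD, n = 2) for ERα17p minus estradiol. Of all genes, 0.0607% were at least 2-fold higher in that comparison and 0.086% lower. Of the GNAI1 sets, 209576_at was past 2-fold at 1.46, and 227692_at fell short of it at 0.64. Set 209576_at read 0.68 with ERα17p, −0.78 with estradiol and 0.44 with vehicle, and 227692_at read 0.39, −0.25 and 0.66 in the same order. On both sets the estradiol array was the lowest of the 3, and against vehicle the gene stood at −0.01 with ERα17p and −1.06 with estradiol. GNAI2 and GNAI3 stood at −0.22 and 0.01 for ERα17p minus estradiol. GNAQ, the Gq α subunit, stood at 1.09 ± 0.67 (SD, n = 5) with ERα17p and 0.78 ± 0.67 with estradiol. The endosomal sorting gene HGS stood at −0.90 ± 1.28 (SD, n = 2) and −0.71 ± 1.33, and RGS16, which speeds G protein shut-off, at −0.50 ± 0.75 (SD, n = 3) and −0.80 ± 0.82. The arrestin ARRB1 stood at −0.49 and −0.39.

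Of 25 kinases, GTPases and adaptors downstream of CXCR4, 22 were measured, and their ERα17p minus estradiol differences all lay between −0.32 (PIK3R1) and 0.22 (MAPK3). With ERα17p 1 was past 1.5-fold higher and 1 lower, where 6.88% and 8.76% of all genes were. With estradiol 3 were past 1.5-fold higher and 2 lower, where 6.48% and 8.42% of all genes were. MAP2K1, a kinase of the ERK cascade, stood at 0.98 with ERα17p and 1.07 with estradiol, AKT1 at −0.71 and −0.66, VAV1 at −0.55 and −0.73, and ELMO1, which activates Rac, at 0.45 and 0.73. Among 13 measured of 15 transcription factors and chromatin proteins listed for CXCR4 and CXCL12, 1 was past 1.5-fold. This was the nuclear receptor NR2F1, at 1.52 with ERα17p and −0.06 with estradiol, and its 1 set read 1.26, −0.32 and −0.26 on the ERα17p, estradiol and vehicle arrays. HIF1A, which induces CXCR4 in low oxygen, stood at 0.30 and 0.28, EPAS1 at 0.58 ± 0.64 (SD, n = 3) and 0.36 ± 0.48, VHL at −0.21 and −0.41, and NFKB1 at −0.21 and −0.39. ESR1, the gene of estrogen receptor α itself, stood at 0.19 ± 0.24 (SD, n = 9) and 0.10 ± 0.20.

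CXCL12 belongs to the known estrogen-induced genes, and nearly all of the others were also lower with ERα17p than with estradiol. Of 28 others listed 26 were measured, and 25 lay below 0 for ERα17p minus estradiol, against 48.4% of all genes. Their median was −0.56, against 0.01 for all genes, and 6 were at least 2-fold lower, against 0.086% of all genes. Besides RASGRP1, the potassium channel gene KCNK5 stood at −1.84, the transcription factor MYC at −1.70, HEY2 at −1.40 ± 0.02 (SD, n = 2), SIAH2 at −1.23 and MYB at −1.14 ± 1.12 (SD, n = 2). The list was written with results of these arrays known, so it is no independent evidence of a direction.

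Against vehicle, these genes were mixed with ERα17p and mostly higher with estradiol. With ERα17p 14 of the 26 lay below vehicle, as did CXCL12, against 49.9% of all genes, and with estradiol 5 lay below it, against 50.6%. Past 2-fold higher with ERα17p was 1 of the 26 and past 2-fold lower were 4, with a median of −0.03, and with estradiol 7 and 2, with a median of 0.57. Among all genes, the matching shares were 1.9% higher and 1.87% lower with ERα17p, and 1.57% and 1.63% with estradiol. Besides HEY2 at −1.18 ± 0.78 (SD, n = 2) with ERα17p and 0.22 ± 0.77 with estradiol, KCNK5 stood at 0.55 with ERα17p and 2.39 with estradiol, MYC at 0.38 and 2.07, and PGR at 0.89 ± 0.04 (SD, n = 2) and 1.44 ± 0.28. GREB1 stood at 0.24 ± 0.25 (SD, n = 3) and 0.94 ± 0.84. These last 4 genes were in the minority of 12 that lay above vehicle with the peptide. TFF1, at −2.92 and −2.19, lay below vehicle in both, its 1 set reading −0.71 with ERα17p, 0.03 with estradiol and 2.22 with vehicle. Relative to the baselines, the CXCL12 mean was −1.81 with ERα17p, 0.82 with estradiol and −0.48 with vehicle, while MYC read −0.90, 0.80 and −1.27 in the same order. The vehicle value was the lowest of the 3 for MYC and intermediate for CXCL12. Of 20 of the 26 genes that matched a start window, 3 held AGGTCA in it, or 15.0%.

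**Figure D4:**
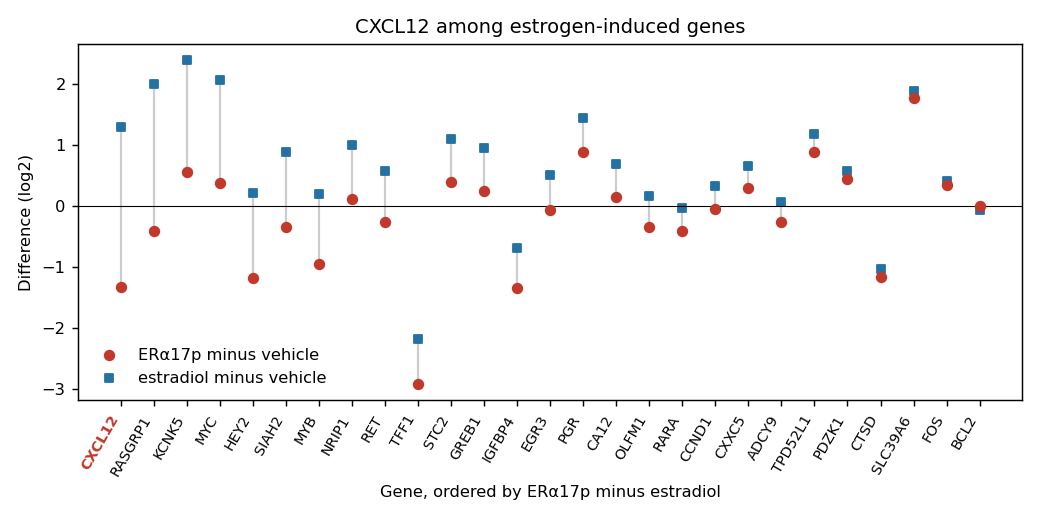
Difference from vehicle (log2, vertical) of CXCL12 and 26 other estrogen-induced genes with ERα17p (circle) and estradiol (square), ordered by ERα17p minus estradiol. CXCL12 has the widest gap, and BCL2 at the right end is the 1 gene with ERα17p above estradiol, at 0.05.

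Because CXCL12 is abundant in stroma and CXCR4 in leukocytes, markers of those cells were compared too. Of 12 stromal and endothelial markers, all measured, the medians were 0.11 with ERα17p and 0.09 with estradiol, each minus vehicle, and ERα17p minus estradiol lay between −0.28 (CDH5) and 0.43 (FAP). LUM was the 1 member past 2-fold, at 1.43 ± 1.53 (SD, n = 2) and 1.05 ± 0.97. At least 2-fold higher were 1.9% of all genes with ERα17p and 1.57% with estradiol. COL1A1 stood at −0.44 ± 0.64 (SD, n = 5) with ERα17p and −0.63 ± 0.66 with estradiol. COL1A2 and PDGFRB stood at 0.18 and −0.30 with ERα17p and at 0.31 and −0.28 with estradiol. No stromal marker differed between the treated arrays by 1.5-fold, and few genes did. Of all genes, 0.521% were past 1.5-fold higher in that comparison and 0.607% lower. Of 9 leukocyte markers 7 were measured and 0 were past 1.5-fold with either agent, with ERα17p minus estradiol between −0.20 (LYZ) and 0.50 (CD2). Past 1.5-fold higher and lower were 6.88% and 8.76% of all genes with ERα17p, and 6.48% and 8.42% with estradiol. Among 11 luminal markers, PGR was past 2-fold with estradiol, and for ERα17p minus estradiol the range was −0.55 (PGR) to 0.50 (FOXA1). The samples were cultures of the T47D line, and whether a marker was expressed at all cannot be read from these values.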

How the data were processed

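Total RNA from 3 cultures was hybridised to 1 array each, per the labels' protocols. The authors deposited RMA values, per the submitters' processing notes, and these were taken as log2 because RMA gives log2 values. No source used here gives the RMA version, how values were centred, on which baseline, or the base of the logarithm. The deposited array medians were −0.0029 for ERα17p, −0.00006 for estradiol and −0.0097 for vehicle. Precision is limited by the number of arrays, and how far a signal lay over background cannot be known. Of 54675 probe sets 62 were controls, and the platform annotation gave 41091 exactly 1 gene, 1801 several and 11721 none. Sets with several genes or with none entered no gene value. Differences were averaged over the probe sets of each of 19775 genes.

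With 1 array a group no significance test was run, and genes were counted past 2-fold or 1.5-fold. Named genes followed a rule: the members, up to 4 list members with the largest difference from vehicle, the 6 nearest to CXCL12 and 4 nearest to each receptor, the 6 next in the order of opposite differences, the extremes of ERα17p minus estradiol, and ESR1, PGR, TFF1, GREB1 and MYC. DPP4, HIF1A, ARRB1, GNAI2 and GNAI3, HEY2, SIAH2 and MYB as estrogen-induced genes, and genes that end a range were chosen after their values were seen. The members and lists were chosen with earlier results of these data known. Start windows came from a RefSeq table on GRCh38.p14, cut to the 250 bases before each start. Computations used Python 3.11.15, numpy 2.4.6 and pandas 2.3.3, and figures matplotlib 3.10.9. They were run on simulated data with small noise, equal in size on all arrays, and planted differences well past 2-fold. There 200 of 200 planted opposite genes among 19775 were recovered with 0 false ones. This checks the computation only and says nothing of the error in these arrays.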

Additional observations from a re-analysis of the deposited data

How the results depend on the processing

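For CXCL12, the median of probe sets and leaving out sets ending in _x_at or _s_at could not change any difference. The gene has 2 probe sets, so their median equals their mean, and neither set ends that way. Centring the arrays on their medians could hardly change the differences, because the deposited medians were nearly equal. With quantile normalization of the 3 arrays the CXCL12 differences kept their sign and stayed past 2-fold. Quantile normalization moved ERα17p minus vehicle to −1.92 and ERα17p minus estradiol to −3.52. For CXCR4, leaving out the sets ending in _x_at or _s_at left 217028_at alone, at −1.65 for ERα17p minus vehicle. Quantile normalization gives the vehicle array the same spread as the treated arrays by its construction. Genes at least 2-fold higher and lower then numbered 160 and 109 for ERα17p minus vehicle, 86 and 114 for estradiol minus vehicle, and 110 and 90 for ERα17p minus estradiol, against 376 and 369, 310 and 323, and 12 and 17 as deposited. It also brought the genes 2-fold opposite in the treated arrays to 4, with ADRA2A, RASGRP1 and SHISA2 beside CXCL12. At 1.5-fold the same 6 counts were 1361, 1732, 1281, 1665, 103 and 120, and at 3-fold 57, 38, 44, 35, 1 and 6. Of 108 list medians recomputed, 14 had the other sign. All 108 moved by less than the SD over members, which is a wide yardstick for a median. With quantile normalization the median of the estrogen-induced genes went from −0.03 to −0.33 for ERα17p minus vehicle. For ERα17p minus estradiol it went from −0.56 to −0.85, and for estradiol minus vehicle from 0.57 to 0.62. The brightest probe set per gene and a filter on low values were not run, because the values hold no levels. Leaving out 217028_at or 212977_at was chosen after seeing the data. No paired analysis was possible because each group has 1 array.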

Other observations

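Measured genes that flank the members on their chromosomes, 2 on each side, lay between −0.42 and 0.42 with ERα17p and between −0.44 and 0.30 with estradiol, each minus vehicle. Next to CXCL12 in the RefSeq order of GRCh38.p14, LINC00841 stood at 0.22 with ERα17p and 0.00 with estradiol, and TMEM72-AS1 at 0.00 and 0.22. Beside CXCR4, MCM6, a replicative helicase subunit, stood at 0.10 and 0.00 on one side and the pseudogene UBBP1, also among the genes next in the order of opposite differences, at 0.42 and −0.44 on the other, followed by THSD7B at −0.42 and −0.31. Beside ACKR3, the signalosome subunit gene COPS8 stood at 0.25 and 0.30.

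At the other end of the direct comparison from CXCL12, SHISA2 had the highest ERα17p minus estradiol difference at 1.75, followed by NR2F1 at 1.58, AMIGO2 at 1.44, COX3 at 1.33, LRIG3 at 1.27 and the detoxifying enzyme CYP1A1 at 1.23, each by 1 probe set. On the side of CXCL12, the adrenergic receptor gene ADRA2A stood at −1.95 and the kinase SGK1 at −1.63. ADRA2A read −1.32 with ERα17p, 0.64 with estradiol and −1.27 with vehicle, so that the estradiol array alone was set apart. NR2F1 was set apart by the ERα17p array alone.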
